A study of Homo sapiens with 2 samples.

Results

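The genes examined were the 3 colony-stimulating factors CSF1, CSF2 and CSF3, the interleukin-6 (IL-6) family ligands IL6, IL11 and LIF, and the receptors IL6R, IL6ST, LIFR and OSMR, which makes 10 of the 41582 gene symbols in the table. The RNA came from U87, an established human glioblastoma cell line labelled as wild type and grown in RPMI with 10% fetal bovine serum. Cells received the curcumin analog CCA-1.1 or the solvent DMSO for 72 h, and each condition was sequenced as 1 library. The dose of CCA-1.1 in the sequenced culture is not given in the sources used here. Values are TPM (reads scaled to transcript length and to the total of the library), and gene values are sums over the transcripts of a gene. With single libraries, no difference could be checked against replicates, and p-values were not calculated. The read depth behind a TPM value is unknown. The members were chosen by name, with their DMSO and CCA-1.1 TPM in this same table known, so their differences are a description. Because RNA of whole cultures was measured, fewer cells making a transcript and less of it per cell cannot be told apart.

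Colony-stimulating factors are secreted proteins that direct the formation and function of blood cells. CSF1 acts on macrophages and microglia, CSF2 on granulocytes and macrophages, and CSF3 on neutrophils. Most IL-6 family ligands signal through the shared receptor subunit IL6ST. It works with a partner such as IL6R, LIFR or OSMR and passes the signal to JAK kinases and the transcription factor STAT3. In glioblastoma, tumor cells are known as a source of CSF1, LIF and IL-6, and this signalling is known in the exchange between tumor cells and microglia.

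CSF3 and IL6 were more than 2-fold lower in CCA-1.1 treated U87 cells, and none of the 10 genes was more than 2-fold higher. The 2-fold limit was set on log2((CCA-1.1 TPM + 1) / (DMSO TPM + 1)), called the log2 difference here, at above 1 or below -1. This scale understates the change of genes at low TPM. Of the 10 genes, 9 had a mean of at least 1 TPM over both libraries, and CSF2, with a mean of 0.965 TPM, did not. Across all 15485 genes with that mean, 1.67% were more than 2-fold lower and 1.89% more than 2-fold higher. Among the 12041 protein-coding genes of that level, 0.191% were lower and 0.149% higher by this measure, and their 5th and 95th percentiles of the log2 difference were -0.31 and 0.36. The contrast behind these shares is the one in view when the members were listed, so nothing is read from the count of 2. The median log2 difference was -0.39 for the 6 ligands, or -0.42 for the 5 with a mean of at least 1 TPM. It was -0.12 for the 4 receptors, beside 0.02 for the protein-coding genes of that level.

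**Figure D1:**
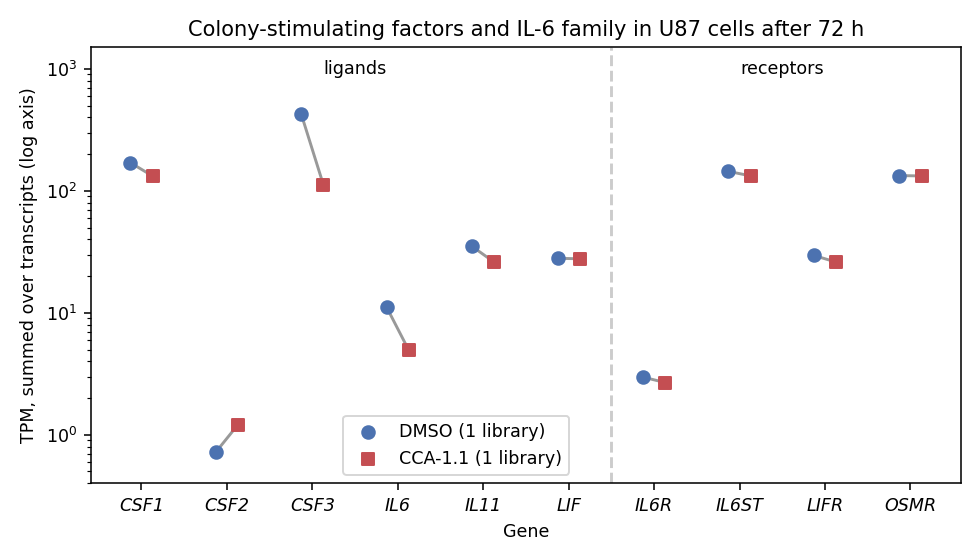
TPM of each gene in the DMSO library (blue circles) and the CCA-1.1 library (red squares) on a log axis, with ligands left and receptors right of the dashed line. CSF3 has the longest line, from 427 to 112 TPM, and OSMR the flattest, from 133.4 to 132.4 TPM.

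CSF3, which encodes granulocyte colony-stimulating factor, was at 427 TPM with DMSO and at 112 TPM with CCA-1.1. Its log2 difference was -1.92, and its TPM was 3.82 times as high in the DMSO library. In DMSO it was the most abundant of the 10 genes and ranked 298 among the 12041 protein-coding genes. In CCA-1.1 it was below CSF1, IL6ST and OSMR and ranked 1335. Only 2 of the protein-coding genes had a log2 difference below that of CSF3. In GRCh38.p14 the gene (Entrez 1440) spans 40015440 to 40017813 of chromosome 17. Its neighbours on either side did not share the pattern: PSMD3, a proteasome subunit gene 17.5 kb away, was at 68.0 TPM with DMSO and 78.4 TPM with CCA-1.1. MED24, a Mediator subunit gene 1.29 kb away, was at 52.6 TPM and 48.9 TPM.

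Of the 8 listed CSF3 transcripts, 5 reached a mean of 1 TPM. All 5 were lower with CCA-1.1, and the smallest log2 difference among them was -0.32. Transcript NM_172219.3 carried most of the gene, at 384 TPM with DMSO and 95.3 TPM with CCA-1.1, so it was 4.03 times as high with DMSO. It accounted for 91.7% of the difference of the gene in TPM. It held 90.0% of CSF3 with DMSO and 85.2% with CCA-1.1. Transcript NM_000759.4 was at 32.3 TPM and 9.96 TPM, a log2 difference of -1.60, and its share was close in both libraries, at 7.56% and 8.90%. The other protein-coding transcripts stood nearer to level. NM_001178147.2 was at 4.45 TPM with DMSO and 3.28 TPM with CCA-1.1, and NM_172220.3 was at 2.63 TPM and 1.90 TPM. Among the non-coding CSF3 transcripts, NR_168490.1 was at 2.02 TPM with DMSO and listed at 0 in CCA-1.1. NR_168491.1 went the other way and was listed at 0 in DMSO and at 1.30 TPM with CCA-1.1. Kallisto divides reads that match several transcripts among them by estimation, so these small values can depend on the large value of NM_172219.3.

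IL6 encodes interleukin-6, the name-giving cytokine of the family. It was at 11.1 TPM with DMSO and at 4.92 TPM with CCA-1.1, a log2 difference of -1.03, just past the 2-fold limit. The next gene of the group by size was IL11, at -0.42. In all, 21 protein-coding genes had a log2 difference below that of IL6. Nearly all of its TPM came from NM_000600.5, at 10.8 TPM with DMSO and 4.78 TPM with CCA-1.1, and 2 of its 4 listed transcripts were at 0 in both libraries. IL6 (Entrez 3569) lies on chromosome 7 from 22727200 to 22731998. The antisense gene IL6-AS1, which overlaps it, was at 0.20 TPM and 0.14 TPM, far under IL6. The neighbouring genes STEAP1B and TOMM7 had log2 differences of -0.10 and 0.0014.

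The 250 bases before the RefSeq start site are shown for IL6, CSF2 and IL11, the ligands for which a window was available. IL6 was past 2-fold lower, IL11 was lower by less (log2 difference -0.42), and CSF2 was under a mean of 1 TPM. Whether the sequence of these windows bears on the differences was not tested. Letters in capitals mark matches, on either strand, to a motif searched. The motifs were the consensus of NF-kB, TTGCNNAA for C/EBP, TGANTCA for AP-1 and TGACGT for the core of the cyclic AMP response element. TTCNNNGAA was searched for STAT, TATAAA for the box that places many start sites, and AGATTCC for the core of the cytokine element CK-1. The sequences are from RefSeq, GRCh38.p14, printed 5′ to 3′ along the gene. IL6 is at chr7:22726950-22727199 on the plus strand, CSF2 at chr5:132073539-132073788 on the plus strand and IL11 at chr19:55370464-55370713 on the minus strand.
IL6: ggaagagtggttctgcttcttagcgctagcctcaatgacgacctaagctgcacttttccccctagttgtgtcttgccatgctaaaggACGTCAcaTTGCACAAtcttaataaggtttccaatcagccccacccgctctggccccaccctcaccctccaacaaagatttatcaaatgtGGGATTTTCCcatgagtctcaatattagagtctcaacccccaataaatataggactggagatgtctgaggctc
CSF2: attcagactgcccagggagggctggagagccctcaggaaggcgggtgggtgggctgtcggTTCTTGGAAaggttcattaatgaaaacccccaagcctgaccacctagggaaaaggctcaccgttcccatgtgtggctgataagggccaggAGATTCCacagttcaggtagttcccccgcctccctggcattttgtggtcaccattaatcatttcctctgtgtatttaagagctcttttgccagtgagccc
IL11: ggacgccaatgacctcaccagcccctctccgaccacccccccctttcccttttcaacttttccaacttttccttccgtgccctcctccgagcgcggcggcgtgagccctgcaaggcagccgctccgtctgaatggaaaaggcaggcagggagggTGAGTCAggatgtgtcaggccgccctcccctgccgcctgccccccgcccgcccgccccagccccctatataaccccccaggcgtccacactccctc

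In the IL6 window, the NF-kB motif was found from -73 to -64 of the start site, the C/EBP motif from -155 to -148 and, on the minus strand, the cyclic AMP response core from -163 to -158. The CSF2 window held the CK-1 core from -100 to -94 and a STAT motif from -190 to -182. The IL11 window held an AP-1 motif from -96 to -90. None of these matches overlapped another. Of 35116 RefSeq windows of the same length, 5.21% held NF-kB, 9.05% C/EBP, 6.57% AP-1, 7.10% the cyclic AMP response core, 6.57% STAT and 2.85% the CK-1 core. The letters TATAAA were in 10.7% of all windows and in none of these 3. Only exact matches were counted, so a variant of this box would be missed. Windows were read for 7 of the 10 genes. IL6R and IL6ST held no match, LIFR held a STAT motif and OSMR a C/EBP motif. The LIFR window, at chr5:38595406-38595655 on the minus strand, lies inside the span of that gene, which ends at 38608403. It thus stands before a start site within the gene and not at its outer end. A match is a description of the letters and not of bound protein. No sequence was read for CSF1, CSF3 and LIF.

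CSF1, macrophage colony-stimulating factor, was at 170.4 TPM with DMSO and 132.3 TPM with CCA-1.1. Its log2 difference of -0.36 was under 2-fold and below that 5th percentile. Of its 5 transcripts with a mean of at least 1 TPM, 4 were lower in CCA-1.1. The main transcript NM_000757.6 was at 136.7 TPM and 101.3 TPM, and NM_172211.4 was at 5.65 TPM and 3.82 TPM. The predicted transcript XM_017000369.1 was the exception, at 15.7 TPM with DMSO and 18.9 TPM with CCA-1.1, and it held 9.23% and 14.3% of CSF1. CSF1 (Entrez 1435) lies on chromosome 1 from 109910506 to 109930992.

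CSF2, granulocyte-macrophage colony-stimulating factor, was the one gene of the 10 that was higher in the CCA-1.1 library. Its single listed transcript, NM_000758.4, was at 0.72 TPM with DMSO and 1.21 TPM with CCA-1.1, a log2 difference of 0.36. Both values are low, and the reads behind them are unknown. The adjacent cytokine gene IL3, 10.6 kb away on chromosome 5, was listed at 0 in both libraries. CSF2 (Entrez 1437) spans 132073789 to 132076170 there.

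IL11, a ligand that signals through IL11RA and IL6ST, was at 35.0 TPM with DMSO and 25.9 TPM with CCA-1.1, a log2 difference of -0.42. This is also below that 5th percentile, and 281 protein-coding genes had a lower value. LIF, leukemia inhibitory factor, was at 28.0 TPM and 27.7 TPM, a log2 difference of -0.01. Within LIF, the main transcript NM_002309.5 was at 26.5 TPM with DMSO and 24.2 TPM with CCA-1.1. The minor transcript NM_001257135.2 was at 1.40 TPM and 3.01 TPM, and it held 5.00% and 10.9% of LIF. Its log2 difference was 0.74, and with a pseudocount of 0.1 or 0.01 TPM it was past 2-fold higher. IL11 (Entrez 3589) lies on chromosome 19 from 55364382 to 55370463, and LIF (3976) on chromosome 22 from 30240453 to 30246759. The antisense gene LIF-AS2, which overlaps LIF, was at 7.18 TPM with DMSO and slightly higher with CCA-1.1, with a log2 difference of 0.06. Since no source used here states strand-specific counting, reads of LIF and LIF-AS2 in the shared stretch cannot be told apart.

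The makeup of the ligand mRNA pool differed between these 2 libraries. The 6 ligands together held 672 TPM with DMSO and 304 TPM with CCA-1.1. CSF3 made up 63.5% of this sum in DMSO and 36.8% in CCA-1.1, where CSF1 was the most abundant ligand with 43.5%. CSF1 held 25.3% with DMSO, where its TPM was higher, so its larger share with CCA-1.1 comes from the smaller sum. The share of IL6 was 1.65% and 1.62%. LIF made up 4.16% in DMSO and 9.12% in CCA-1.1 with almost the same TPM, since the sum was smaller.

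**Figure D2:**
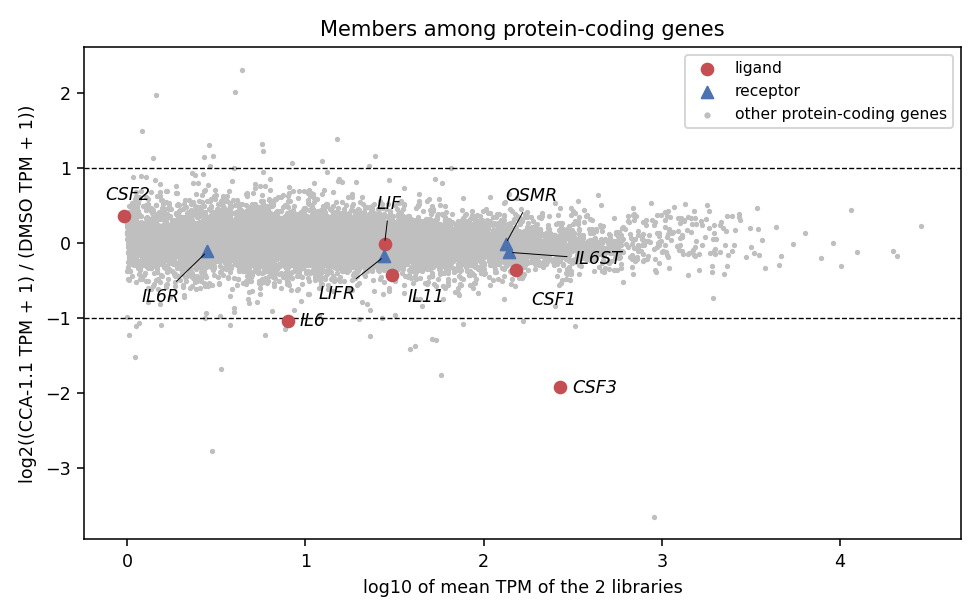
Log2 difference (vertical axis) against log10 of the mean TPM of both libraries for the 10 genes (red circles, ligands; blue triangles, receptors) and for protein-coding genes from a mean of 1 TPM upwards (grey), with dashed lines at 1 and -1. CSF3 at -1.92 and IL6 at -1.03 are below the lower line, and the 4 receptors are between -0.17 and -0.01.

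The 4 receptors differed little, with log2 differences inside the middle 90% of protein-coding genes. IL6ST, the shared signalling subunit, was at 144 TPM with DMSO and 133 TPM with CCA-1.1, a log2 difference of -0.12. OSMR, the oncostatin M receptor subunit, was at 133.4 TPM and 132.4 TPM, a log2 difference of -0.01. In the CCA-1.1 library IL6ST, OSMR and CSF1 were the highest of the 10 genes, at 132.6, 132.4 and 132.3 TPM. The order among these 3 has no replicate spread to set it against. LIFR, the receptor subunit for LIF, was at 29.5 TPM with DMSO and 26.0 TPM with CCA-1.1, a log2 difference of -0.17. IL6R, which binds IL-6 itself, was the lowest of the receptors, at 2.97 TPM and 2.68 TPM, with a log2 difference of -0.11. IL6ST was thus 48.6 times as high as IL6R in DMSO and 49.5 times in CCA-1.1.

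No receptor transcript with a mean of at least 1 TPM passed the 2-fold limit at a pseudocount of 1 TPM. The predicted OSMR transcript XM_047417871.1 came nearest, at 2.07 TPM with DMSO and 1 TPM with CCA-1.1, a log2 difference of -0.62, and with a pseudocount of 0.01 TPM it was past 2-fold lower. For IL6ST, NM_002184.4 made up 81.6% of the gene in DMSO and 81.4% in CCA-1.1. NM_175767.3, known to encode a truncated form of the subunit, was at 2.44 TPM and 1.47 TPM. The non-coding NR_120480.2 was at 2.97 TPM with DMSO and 4.28 TPM with CCA-1.1. For IL6R, the main transcript NM_000565.4 was at 1.98 TPM and 1.44 TPM. NM_181359.3, known to encode a soluble form of the receptor, was at 0.28 TPM with DMSO and listed at 0 in CCA-1.1. The remaining IL6R transcripts above 0 were higher with CCA-1.1. NM_001206866.2 was at 0.43 TPM with DMSO and 0.73 TPM with CCA-1.1, and NM_001382769.1 was at 0.28 TPM and 0.51 TPM. IL6R has 18 listed transcripts, of which 4 were above 0 in either library, so these values rest on little signal. LIFR was mostly NM_001127671.2, at 26.7 TPM with DMSO and 23.9 TPM with CCA-1.1. OSMR was spread over more transcripts, with 9 above a mean of 1 TPM, of which 4 were lower and 5 higher in CCA-1.1. Its main transcript NM_003999.3 was at 58.7 TPM and 59.9 TPM.

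LIFR (Entrez 3977) and OSMR (9180) lie 238 kb apart on chromosome 5, from 38474668 to 38608403 and from 38846012 to 38945579. IL6ST (3572) lies on the same chromosome from 55935095 to 55994963, 12.2 kb from the receptor gene IL31RA, and IL6R (3570) on chromosome 1 from 154405343 to 154469450. No listed transcript was matched to the pseudogenes IL6STP1 and IL6RP1, annotated copies of IL6ST and IL6R, so they have no TPM here. RICTOR, which overlaps OSMR on the other strand, was at 24.7 TPM with DMSO and 27.5 TPM with CCA-1.1.

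Over all 10 genes, 77 transcripts are listed, 18 of them at 0 in both libraries and 33 with a mean of at least 1 TPM. Of these 33, none was more than 2-fold higher and 4 were more than 2-fold lower in CCA-1.1, namely NM_172219.3, NM_000759.4 and NR_168490.1 of CSF3 and NM_000600.5 of IL6. Across the 34503 transcripts with that mean, 3.66% were more than 2-fold higher and 3.38% lower. The 4 transcripts belong to CSF3 and IL6, the genes already described as past 2-fold lower. The members were chosen with these values known, so nothing is read from this count.

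**Figure D3:**
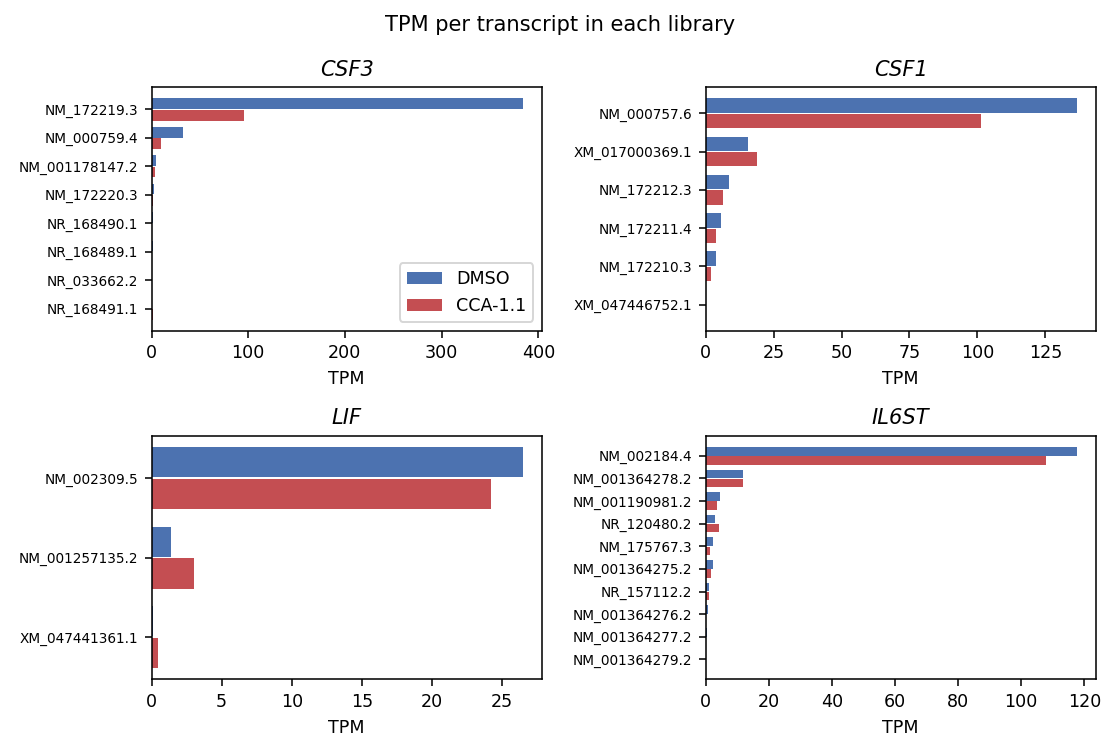
TPM of each transcript above 0 in the DMSO library (blue bars) and the CCA-1.1 library (red bars) for CSF3, CSF1, LIF and IL6ST, each panel with its own TPM axis from 0. The main CSF3 transcript NM_172219.3 goes from 384 to 95.3 TPM, while the main IL6ST transcript goes from 117.8 to 107.8 TPM.

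Most receptors for the colony-stimulating factors were near 0 in these cells. CSF3R, the receptor for CSF3, was listed at 0 in DMSO and at 0.02 TPM with CCA-1.1. CSF2RB, the signalling subunit for CSF2, was at 0 in both, and its partner CSF2RA was at 0.04 TPM and 0.24 TPM. CSF1R was at 1.23 TPM with DMSO and 1.62 TPM with CCA-1.1. CSF1 was 138.6 times as high as its receptor in DMSO and 81.6 times in CCA-1.1. IL34, the other ligand of CSF1R, was at 6.69 TPM and 4.34 TPM, a log2 difference of -0.53. Among receptors of the IL-6 family outside the 10 genes, IL31RA was at 29.5 TPM with DMSO and 26.9 TPM with CCA-1.1. IL11RA, the specific receptor for IL-11, was at 14.1 TPM and 13.3 TPM.

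Of the 8 other IL-6 family ligands, 4 had a mean of at least 1 TPM, and none of these passed 2-fold. CLCF1, cardiotrophin-like cytokine, was the most abundant of them at 44.9 TPM with DMSO and 42.8 TPM with CCA-1.1. EBI3, a subunit of interleukin-27, had the lowest log2 difference of the list, -0.29, at 8.65 TPM and 6.87 TPM. CNTF, ciliary neurotrophic factor, was at 1.49 TPM and 1.20 TPM, a log2 difference of -0.18. CTF1, cardiotrophin-1, was at 2.70 TPM and 2.90 TPM. OSM, the ligand of OSMR and the gene next to LIF, was at 0.03 TPM with DMSO and listed at 0 in CCA-1.1. IL27 and IL31 were at 0 in both libraries.

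Of 54 other pathway genes that reached a mean of 1 TPM, none was more than 2-fold higher or lower. In CCA-1.1, 37 of them (68.5%) were lower, beside 46.0% of the protein-coding genes of that level. The lists were chosen with earlier results of these data known, so nothing is read from these shares. The median log2 difference of the 54 genes was -0.06. The signalling genes had a median of -0.06 over 12 genes. The kinase JAK1 was at 115.9 TPM with DMSO and 112.4 TPM with CCA-1.1, and STAT3 was at 74.6 TPM and 64.8 TPM. ADAM10, a protease known to shed receptors from the cell surface, had the lowest log2 difference of that list, -0.25, and STAT5A the highest, 0.13.

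The STAT3 target and feedback genes had a median of -0.09 over 14 genes, with 9 lower and 5 higher. SOCS3, the main feedback inhibitor of IL6ST signalling, was at 50.0 TPM with DMSO and 44.2 TPM with CCA-1.1, a log2 difference of -0.17. SOCS1, another inhibitor of JAK kinases, was lowest in the list with -0.64, at 6.35 TPM and 3.73 TPM. CEBPD, a transcription factor of the acute-phase response, was at 75.6 TPM and 50.8 TPM, a log2 difference of -0.56. CEBPB, its relative that binds the IL6 promoter, was at 521 TPM with DMSO and 401 TPM with CCA-1.1. PIM1 and IRF1 were the highest of the list, each with a log2 difference of 0.09.

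The factors known to act on these cytokine genes had a median of -0.07 over 18 genes, with 12 lower and 6 higher. The NF-kB subunit RELA was at 119.8 TPM and 114.7 TPM, and NFKB1 was at 5.66 TPM and 6.28 TPM. NFKBIA, the feedback inhibitor of NF-kB, had a log2 difference of -0.34 and NFKBIZ, a co-activator at the IL6 gene, of -0.35. ZC3H12A, a nuclease that degrades IL6 mRNA, had the lowest log2 difference of the list, -0.44, at 59.5 TPM and 43.7 TPM. ZFP36, which speeds the decay of AU-rich cytokine mRNA, was at 140.9 TPM and 118.5 TPM. Its relative ZFP36L2 had the highest value of the list, 0.15.

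Most markers of other cell types were under a mean of 1 TPM. That level was reached by 4 of 9 markers of microglia and macrophages, 1 of 7 of T cells and 1 of 6 of endothelial cells. Those of microglia and macrophages were TMEM119, CD14, CD163 and CSF1R. Among microglia and macrophage markers, AIF1 and P2RY12 were at 0 in both libraries and PTPRC was at 0.09 TPM and 0.07 TPM. The 9 markers summed to 85.5 TPM with DMSO and 63.9 TPM with CCA-1.1, of which TMEM119 held 79.5 TPM and 56.3 TPM. CD163 was the highest of them by log2 difference, 0.57, at 2.11 TPM and 3.61 TPM. T cell markers summed to 13.4 TPM and 13.7 TPM, nearly all of it CD2, and CD3D, CD3E and CD8A were at 0. Endothelial markers summed to 5.24 TPM and 4.27 TPM, and VWF was at 0.12 TPM and 0.19 TPM. The one above a mean of 1 TPM was PECAM1, at 3.41 TPM and 2.71 TPM. For the labelled tissue, the astrocyte marker GFAP was at 0.41 TPM with DMSO and 0.57 TPM with CCA-1.1. S100B and SOX10 were at 0, and OLIG2 was at 5.64 TPM and 7.03 TPM. SLC1A3, a glutamate transporter of astrocytes, was at 42.6 TPM and 28.6 TPM, a log2 difference of -0.56. The mesenchymal markers were high, and all 6 of them were lower in CCA-1.1. Among protein-coding genes that reached 1 TPM on average, 46.0% were lower. The marker lists, too, were chosen with earlier results known, so nothing is read from the count of 6. VIM was at 3217 TPM and 3106 TPM, and CD44 at 607 TPM and 473 TPM. The log2 differences of the 6 markers were between -0.36 and -0.05. Their median was -0.33, beside 0.02 for those protein-coding genes. Any part of these differences in the lower values of CSF3, IL6, IL11 and CSF1 was not tested.

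The protein-coding genes nearest to CSF3 and IL6 were found by distance on the log2(TPM + 1) scale over both libraries. For CSF3 they were GREM1 at a distance of 0.79, SAA1 at 0.87 and MMP3 at 0.93. GREM1, a BMP antagonist, was at 322 TPM with DMSO and 180.0 TPM with CCA-1.1. SAA1, an acute-phase protein, was at 443 TPM and 206 TPM, and MMP3, a matrix metalloproteinase, at 224 TPM and 108 TPM. All 3 had log2 differences closer to 0 than CSF3, the nearest being SAA1 at -1.105. For IL6 the nearest were TM4SF4 at 0.13, E2F1 at 0.19 and CDPF1 at 0.32. Their log2 differences were -1.15, -0.89 and -0.60, so of these only TM4SF4 was past 2-fold lower. With 2 libraries, closeness means only the smallest distances on this scale, and not a similar difference.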

How the data were processed

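RNA of U87 cells after 72 h with DMSO or CCA-1.1 was measured in 1 library each. The authors checked reads with FastQC 0.11.9 and MultiQC 1.1 (the submitters' processing notes) and quantified transcripts by Kallisto pseudo-alignment against GRCh38.p14. The deposited values are TPM, with column sums of 999999 and 1000000, so read depth is unknown. Reads that match several transcripts were divided by estimation, which touches single transcripts more than gene sums.

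RefSeq's table of GRCh38.p14 gave 169966 of 177816 transcripts 1 of 41582 symbols, and TPM was summed per gene. Log2 differences used a pseudocount of 1 TPM. Counts past 2-fold took features that reached a mean of 1 TPM. No test was run, for lack of replicates. Members and gene lists were chosen with earlier results of these data known. All members were described. From each other list, genes past 2-fold, the largest rise and fall, and receptors or ligands of members were to be named, and other list genes were named after their values were seen. The 3 nearest protein-coding genes were added for members past 2-fold. The alternatives were pseudocounts of 0.1 and 0.01 TPM, a minimum mean of 10 TPM or none, median-ratio scaling, curated transcripts only and, added after seeing the data, protein-coding genes only. The calculation was tested on simulated data. Python 3.11.15, numpy 2.4.6, pandas 2.3.3 and matplotlib 3.10.9 were used.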

Additional observations from a re-analysis of the deposited data

How the results depend on the processing

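No paired analysis was possible because each condition has 1 library, and none could be left out. Of 40 recomputed differences of single genes, none crossed 2-fold. The sign changed in 1, OSMR, whose log2 difference was -0.01 and became 0.03 with curated transcripts only. CSF3 stayed between -1.93 and -1.92, and IL6 between -1.17 and -1.03. CSF2, at 0.36, was at 0.68 with a pseudocount of 0.1 and 0.74 with 0.01.

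With a minimum mean of 10 TPM, IL6 was not counted, so 1 of the 10 genes and 2 of their transcripts were past 2-fold lower. The whole table then gave 44 genes higher and 43 lower, and 58 transcripts higher and 67 lower. With a pseudocount of 0.1 or 0.01, 1 transcript of the 10 genes was past 2-fold higher, NM_001257135.2 of LIF. With no minimum mean it was a different 1, NR_168491.1 of CSF3. Transcripts past 2-fold lower numbered 5 with 0.01, where XM_047417871.1 of OSMR was added, and 5 with no minimum mean, where NR_168489.1 of CSF3 was added. The table gave 2438 transcripts higher and 2035 lower with 0.1, 2616 and 2160 with 0.01, and 2074 and 1896 with no minimum mean. Genes higher numbered 451 with 0.01. Curated transcripts only gave 710 transcripts higher and 726 lower, and protein-coding genes only gave 18 genes higher and 23 lower. These counts follow from which features are counted and from the weight of low values. The read depth behind every value is unknown.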

Other observations

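Several non-coding genes named as divergent or antisense to these genes were measured. The highest in both libraries was LIF-AS2, at 7.18 TPM with DMSO and with a log2 difference of 0.06. OSMR-DT, a non-coding gene named as divergent to OSMR, was at 5.32 TPM with DMSO and 7.35 TPM with CCA-1.1, a log2 difference of 0.40, while that of OSMR itself was -0.01. IL6ST-DT was at 0.92 TPM and 1.05 TPM. LIFR-AS1 was at 0.72 TPM and 0.79 TPM, and IL6R-AS1 was at 0.06 TPM with DMSO and listed at 0 in CCA-1.1. These genes were named after their values were seen.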
